A study of Mus musculus with 66 samples.

Results

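Surfactant is the film of lipid and protein that keeps the air spaces of the lung open, and the genes described here encode its 4 proteins and 5 products that type 2 cells of the alveoli use to make it. The 9 genes are Sftpa1, Sftpb, Sftpc, Sftpd, Abca3, Napsa, Lamp3, Slc34a2 and Lpcat1, taken from a fixed list of symbols. Each was represented by the probe set with the highest mean signal among those that the platform annotation gives to that gene alone, which left 8 measured genes of 18193 in the whole series. Lamp3 was not measured by this rule, because its probe set is also annotated to a further gene. RNA of homogenized mouse lung was hybridised to 66 Affymetrix arrays, each with its own sample. There were 22 groups of 3, from wild-type mice (Nrf2+/+) and knockout mice (Nrf2-/-, lacking the transcription factor of antioxidant genes encoded by Nfe2l2) at 4 ages before birth (E13.5, E15.5, then E17.5 and E18.5) and 7 from birth on (each day from PND0 to PND4, then PND14 and PND42). The embryos came from time-mated dams, 2 to 3 lungs were combined for a sample at E13.5, and every other sample was 1 lung. No Cre line, conditional allele or drug treatment is named, one feeding and housing protocol is given for all mice, and each extract holds all cell types of the lung.

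As background, lung epithelium grows out as branching tubes, and its distal tips give rise late in gestation to flat type 1 cells, across which gas is exchanged, and to cuboidal type 2 cells. Type 2 cells pack phospholipid into lamellar bodies and secrete it, and a newborn that lacks working SP-B or the lipid pump ABCA3 cannot keep its alveoli open. Sftpc is already transcribed in the distal tip cells before type 2 cells have formed. Sftpa1, Sftpb and Sftpd are also made by club cells of the airways, and SP-A and SP-D, unlike SP-B and SP-C, are collectins that bind microbes.

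The promoters of these genes are known for sites of NKX2-1, FOXA and C/EBP factors, so the 250 bases before the annotated start were read from RefSeq sequence of build GRCm38.p6. The table held 6 of the 9 genes: Sftpa1, Sftpb, Abca3, Lamp3, Slc34a2 and Lpcat1. Those of Sftpa1, Sftpb and Slc34a2, the measured genes among the 6 that held a motif match, are shown 5′ to 3′ on the plus strand. Each ends at the base before the start, with motif matches on either strand in capitals.
Sftpa1, chr14:41131538-41131787: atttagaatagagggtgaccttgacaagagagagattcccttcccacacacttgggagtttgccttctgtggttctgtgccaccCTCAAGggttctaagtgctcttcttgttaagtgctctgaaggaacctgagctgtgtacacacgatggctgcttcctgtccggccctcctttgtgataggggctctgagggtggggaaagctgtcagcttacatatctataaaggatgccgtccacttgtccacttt
Sftpb, chr6:72304360-72304609: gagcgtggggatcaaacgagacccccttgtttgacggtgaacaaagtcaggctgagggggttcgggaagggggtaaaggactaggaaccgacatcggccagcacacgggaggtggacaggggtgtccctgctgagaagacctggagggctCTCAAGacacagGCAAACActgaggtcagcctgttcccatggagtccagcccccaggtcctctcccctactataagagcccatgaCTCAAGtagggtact
Slc34a2, chr5:53049103-53049352: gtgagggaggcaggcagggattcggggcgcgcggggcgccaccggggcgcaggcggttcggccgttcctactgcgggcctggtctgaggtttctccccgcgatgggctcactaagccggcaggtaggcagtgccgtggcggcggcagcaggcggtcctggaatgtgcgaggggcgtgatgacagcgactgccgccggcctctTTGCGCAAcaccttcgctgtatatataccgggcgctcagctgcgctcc

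The NKX2-1 motif, searched as CTCAAG, matched once in Sftpa1, 166 to 161 bases before the start, and at 2 places in Sftpb, 100 to 95 and 15 to 10 bases before it. It matched in 13.3% of 32851 promoters of this length. The FOXA motif TGTTTNC matched in Sftpb on the minus strand, as GCAAACA, and at 2 places in Lamp3 (162 to 156 and 92 to 86 bases before the start). It matched in 17.8% of promoters. The C/EBP motif TTGCNNAA, searched on both strands, matched in Slc34a2, as TTGCGCAA, and in 9.56% of promoters. A core of the antioxidant response element, through which Nrf2 acts, was searched as TGACNNNGC. It matched in 10.2% of promoters and in none of the 6 windows. Abca3 and Lpcat1 held no match to any of the 4 motifs. A match is a run of letters and not a shown site, and a missing match says nothing about the factor outside these windows.

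Values below are log2(signal + 16) after quantile normalization, and differences are in log2 units with the standard error (SE) of limma's fit, which pools the spread of all 22 groups. A gene is called changed at a limma adjusted p under 0.05 over all 45037 probe sets. Nfe2l2 separated the genotypes, at 10.49 to 12.25 in the 33 wild-type libraries and 4.41 to 8.26 in the 33 knockout libraries. The arrays of PND1 to PND4 were scaled differently before deposit (trimmed means of 172 to 307, against 500 at the other ages), so levels at those 4 ages and at the other 7 cannot be told apart from scaling. Several libraries stood apart in the genes described here. Knockout replicate 1 was the highest of its group in all 8 genes at E13.5 and at E15.5, knockout replicate 2 the lowest in all 8 at E13.5, and wild-type replicate 2 the lowest in all 8 at PND14, as was wild-type replicate 1 at PND3. The knockout libraries labelled E18.5 correlated best with wild type of an earlier age. Over 45020 probe sets of other genes, replicates 2 and 3 did so with wild-type E17.5 (0.984 and 0.985, against 0.978 each with E18.5). Replicate 1 correlated best with wild-type E15.5 (0.972), closely followed by E17.5 (0.971). Of those labelled E17.5, replicates 1 and 3 correlated best with wild-type E17.5 (0.9815 and 0.9811, against 0.9802 and 0.9809 with E18.5). Replicate 2 correlated best with wild-type E18.5 (0.982, against 0.980 with E17.5).

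All 8 genes varied with age in wild type (limma F test over 11 ages, largest adjusted p = 1.6e-19) and in knockouts (largest adjusted p = 1.1e-10), where 65.2% and 70.6% of all probe sets did. In wild type 7 of 8 rose from E13.5 to E15.5, all but Sftpd, and 7 of 8 rose from E15.5 to E17.5, all but Sftpc. Of all probe sets 4.57% and 8.74% rose at these steps. The median difference of the 8 genes was 1.49 at the earlier step and 3.28 at the later one, against -0.01 and -0.01 over all probe sets. In whole-lung RNA, more type 2 cells and more RNA in each of them cannot be told apart.

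**Figure D1:**
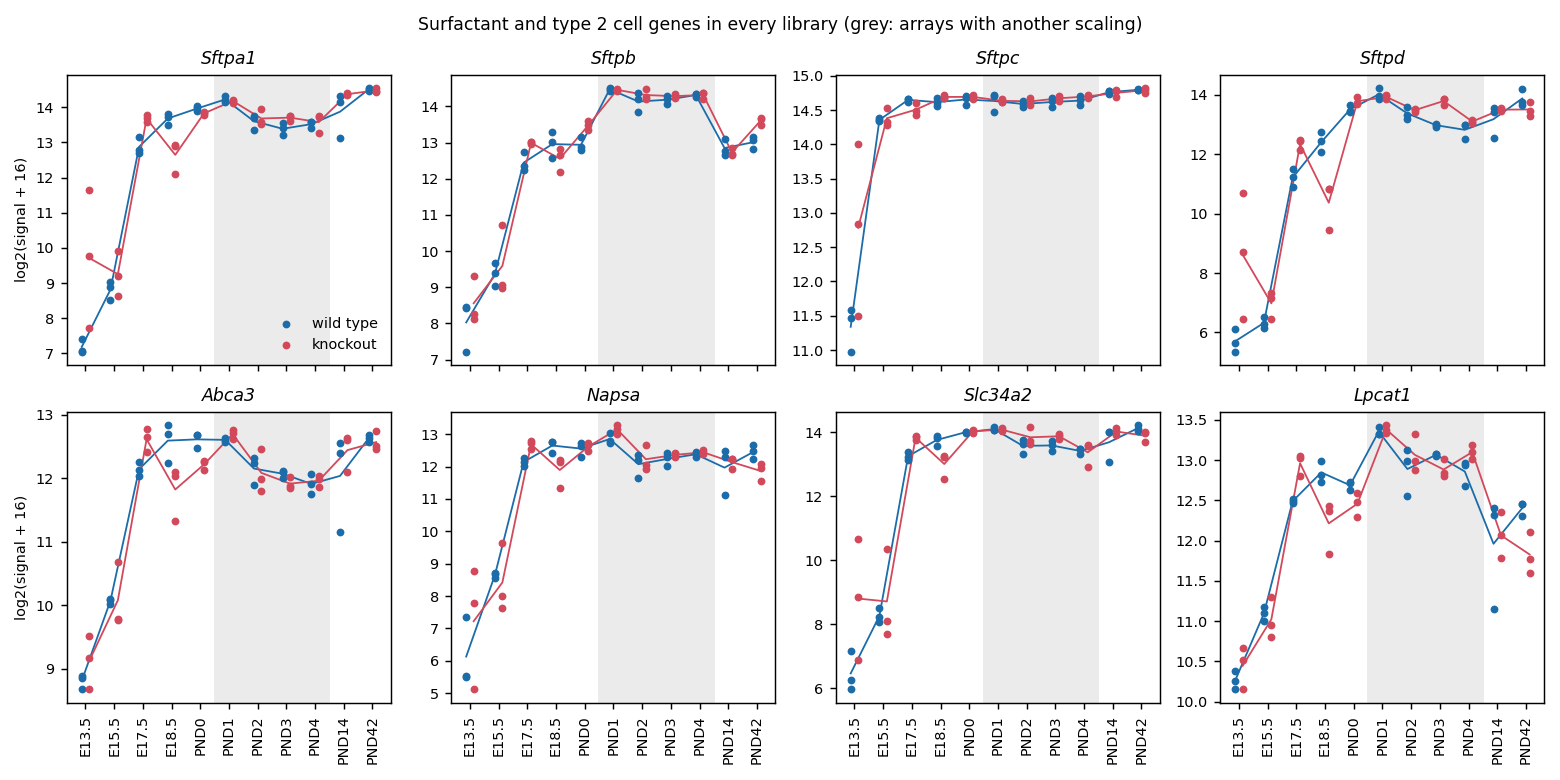
Signal of the 8 measured genes, as log2(signal + 16) on the vertical axis of each panel, in every library at the 11 ages on the horizontal axis (points, blue wild type and red knockout; lines join group means, n = 3). Grey marks PND1 to PND4, whose arrays were scaled differently before deposit. Wild-type Sftpd stays at 5.35 to 6.51 through E15.5 and reaches 10.89 to 11.50 at E17.5, and the red points at E13.5 are spread over 3.91 units in Sftpa1.

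Of the collectins, Sftpa1 rose at both steps and Sftpd from E15.5 to E17.5; the difference between the genes was not tested. The Sftpd signal of the 3 wild-type libraries was 6.11, 5.35 and 5.65 at E13.5, 6.29, 6.51 and 6.16 at E15.5, and 10.89, 11.23 and 11.50 at E17.5. All libraries of E17.5 thus lay above all of E15.5, while E13.5 and E15.5 differed by 0.62 ± 0.41 (SE, limma, adjusted p = 0.45, 95% interval -0.21 to 1.44). The rise from E15.5 to E17.5 was 4.89 ± 0.41 (limma, adjusted p = 6.2e-13). Sftpa1 stood at 7.05, 7.08 and 7.43 at E13.5, at 8.90, 9.03 and 8.51 at E15.5, and at 12.78, 12.70 and 13.14 at E17.5. No library of one age overlapped the next, and both steps passed (1.63 ± 0.38, adjusted p = 0.0028, and 4.06 ± 0.38, adjusted p = 1e-11, limma). From E13.5 to PND42 the wild-type difference was 8.17 in Sftpd, 7.66 in Slc34a2 and 7.32 in Sftpa1. The mean deposited signal of Sftpd at E13.5 was 42.6, under the array medians of 85.2 to 127, so the size of its rise depends on a dim starting value and on the 16 added to it.

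Of the hydrophobic proteins that spread the lipid film, both rose from E13.5 to E15.5, and Sftpb rose from E15.5 to E17.5 as well. The difference between the genes was not tested. The wild-type signal of Sftpc was 11.58, 10.97 and 11.46 at E13.5 and 14.35, 14.38 and 14.34 at E15.5, a rise of 3.02 ± 0.22 (limma, adjusted p = 1e-14). It then differed by 0.29 ± 0.22 between E15.5 and E17.5 (adjusted p = 0.44), and every later wild-type library lay between 14.47 and 14.81. By E15.5 the Sftpc signal ranked 74 to 87 of 45037 probe sets on the wild-type arrays, so quantile normalization left little room above it, and later differences in Sftpc are compressed. Sftpb rose at both steps (1.34 ± 0.26 and 3.07 ± 0.26, limma, adjusted p = 4.1e-04 and 1.1e-12), from 7.22, 8.42 and 8.45 at E13.5 to 9.41, 9.67 and 9.03 at E15.5 and 12.23, 12.36 and 12.73 at E17.5. The 3 ages did not overlap in Sftpb.

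The genes of lipid handling and processing followed the same 2 steps. Abca3, which pumps phospholipid into lamellar bodies, rose by 1.26 ± 0.22 and 2.07 ± 0.22, from 8.86, 8.88 and 8.69 to 10.10, 10.03 and 10.07 and to 12.13, 12.04 and 12.25. Lpcat1, an acyltransferase that remodels phosphatidylcholine into its disaturated form, rose by 0.83 ± 0.18 and 1.39 ± 0.18, the smallest rises of those called. Its wild-type libraries lay at 10.16 to 10.38, 11.01 to 11.18 and 12.47 to 12.52, with no overlap between ages. Napsa, the aspartic protease that trims the SP-B precursor, rose by 2.52 ± 0.44 and 3.49 ± 0.44. Its wild-type signal at E13.5 was 5.53, 7.36 and 5.51, with replicate 2 apart, then 8.72, 8.69 and 8.55, then 12.28, 12.01 and 12.13. Slc34a2, the sodium-phosphate transporter of the type 2 cell surface, rose by 1.80 ± 0.43 and then by 4.99 ± 0.43, close to that of Sftpd. Its libraries stood at 6.26, 7.18 and 5.97, at 8.23, 8.50 and 8.07, and at 13.22, 13.15 and 13.39. All 7 rises at each step kept their call without any 1 library.

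Expressed as a share of each gene's log2 rise from E13.5 to PND42, wild-type Sftpc had covered 87.3% of it by E15.5, Sftpd 7.6% and the other 6 genes 22.2% to 39.9%. Sftpc lay near the top of the array's range, so its share cannot be set against those of the other genes. By E17.5 the share was 67.4% in Sftpd, 77.7% in Sftpa1 and 87.2% or more in the other 6 genes. No gene of the 8 passed from E17.5 to E18.5 in wild type, where 1.23% of probe sets did, or from E18.5 to PND0 (4.15%). At the earlier of these steps 7 of 8 differences were positive, up to 1.20 ± 0.41 in Sftpd (limma, adjusted p = 0.16). At the later one Sftpd differed by 1.10 ± 0.41 (adjusted p = 0.14).

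Other genes of type 2 cells and of surfactant metabolism were counted from lists of the same kind. Over all probe sets 8.74% rose and 9.21% fell from E15.5 to E17.5 in wild type, and 4.57% rose from E13.5 to E15.5. Of 15 further type 2 cell genes, 14 rose from E15.5 to E17.5 in wild type, led by the complement gene Hc (3.71), the chemokine Cxcl15 (3.68) and the calcium-binding S100g (3.49). Of 21 genes of surfactant lipid synthesis and transfer, 15 rose and 1 fell, with the desaturase Scd1 at 2.93, the phosphatidate phosphatase Lpin1 at 1.96 and the elongase Elovl6 at -1.35. Of 20 transcription factors of type 2 cells, 9 rose and 1 fell at this step, with Klf5 at 1.58, Tfcp2l1 at 1.50 and Cebpd at 1.44, and 10 rose from E13.5 to E15.5, led by Elf5 (2.94). Of 11 genes of lamellar bodies and secretion 3 rose, among them the lipid transporter Abca1 (0.80). Surfactant genes did not move alone: 12 of 14 type 1 cell markers, 6 of 10 club cell markers and 7 of 9 ciliated cell markers also rose from E15.5 to E17.5.

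After birth the wild-type levels changed less. From PND1 to PND4, within 1 scaling set, only Abca3 passed, lower by 0.69 ± 0.22 (limma, adjusted p = 0.03), where 4.75% of probe sets fell. The libraries of Abca3 stood at 12.60, 12.63 and 12.58 at PND1 and at 12.07, 11.91 and 11.75 at PND4. The groups did not overlap, but the call was lost without any 1 of 5 of the 6 libraries (adjusted p = 0.070 to 0.13; it held without replicate 1 of PND4). Knockouts gave the like step in Abca3, -0.73 ± 0.22 (adjusted p = 0.025), from 12.61, 12.71 and 12.77 to 11.86, 12.03 and 11.99. That call too was lost without any 1 of 5 of the 6 libraries (adjusted p = 0.050 to 0.094; it held without replicate 1 of PND1), and 3.89% of probe sets fell there.

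From PND0 to PND14 wild-type Lpcat1 fell by 0.73 ± 0.18 (limma, adjusted p = 0.0034), where 7.39% of probe sets fell. Its libraries stood at 12.71, 12.63 and 12.72 at PND0 and at 12.41, 11.15 and 12.32 at PND14, so both groups kept apart with replicate 2 far below. Without that library the difference was -0.32 (adjusted p = 0.17). Wild-type PND14 replicate 2 averaged 12.45 over the 8 genes against 13.34 for the other 2 libraries. Its cell cycle list averaged 11.29 against 8.49 and 9.07, and its mesenchyme list 12.05 against 12.90 or more in both others; the part of these in the result was not tested. The log2 ratio of the 3' over the 5' control probe sets of Gapdh was -0.28 to -0.064 in wild type at PND0 and 0.24 to 1.01 at PND14, and its part was not tested either. In knockouts Sftpb fell by 0.76 from PND0 to PND14 (adjusted p = 0.023, 16.1% of probe sets lower) and rose by 0.88 from PND14 to PND42 (adjusted p = 0.019, 6.14% higher). Sftpb stood at 13.60, 13.48 and 13.36, then 12.84, 12.68 and 12.65, then 13.69, 13.49 and 13.64 in these knockouts, with PND14 below both other ages. The fall was lost without replicate 1 or 2 of PND0 or replicate 2 or 3 of PND14, and the rise without replicate 2 or 3 of PND14 or replicate 1 or 3 of PND42 (adjusted p up to 0.076 and 0.065). The Gapdh ratio was 0.77 to 1.38 in knockouts at PND14, 0.43 to 0.66 at PND42 and -0.25 to -0.17 at PND0. No gene of the 8 passed from PND14 to PND42 in wild type, where 14.8% of probe sets did.

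Ordered by level, the ages of a gene mostly overlapped once E17.5 was passed. In wild type, 2 to 5 of the 10 steps between neighbouring ages in a gene's own order were free of overlap, and in knockouts 1 to 6. The order was set by these same values, and no like count was made over all probe sets. Sftpb had the order E13.5, E15.5, E17.5, PND14, PND0, E18.5, PND42, PND2, PND3, PND4, PND1 in wild type. The gaps were before E15.5, before E17.5, before PND2 and before PND1, and the 4 highest ages are those of the other scaling set. Sftpa1 was highest at PND42 in both genotypes (14.46 to 14.55 in wild type and 14.44 to 14.54 in knockouts). It lay above PND1 in wild type and above PND14 in knockouts without overlap. PND1 is of the other scaling set, so its place below PND42 cannot be told apart from scaling.

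At E13.5 Sftpa1, Sftpc, Sftpd and Slc34a2 were higher in knockouts, 4 of 8 genes where 0.606% of probe sets were higher, and the 3 knockout libraries were far from alike. Sftpd stood at 6.11, 5.35 and 5.65 in wild type and at 10.68, 6.46 and 8.71 in knockouts, replicates 1 to 3. All knockout values exceeded the wild-type ones, as in 7.13% of probe sets, with replicate 2 close to them and replicate 1 far above, and the mean difference was 2.91 ± 0.41 (limma, adjusted p = 1.8e-05). Sftpa1 stood at 7.05, 7.08 and 7.43 in wild type and at 11.64, 7.73 and 9.77 in knockouts, without overlap (2.53 ± 0.38, adjusted p = 3e-05). Sftpc stood at 11.58, 10.97 and 11.46 against 14.01, 11.50 and 12.84, and Slc34a2 at 6.26, 7.18 and 5.97 against 10.67, 6.89 and 8.86. In both genes knockout replicate 2 lay within the wild-type range while the others lay above it (1.45 ± 0.22, adjusted p = 4.2e-05, and 2.34 ± 0.43, adjusted p = 8.1e-04, limma).

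The other 4 genes did not pass at E13.5. Napsa differed by 1.09 ± 0.44 (limma, adjusted p = 0.24, 95% interval 0.21 to 1.97), with 8.77, 5.12 and 7.78 in knockouts around wild-type values of 5.53, 7.36 and 5.51. Sftpb differed by 0.53 ± 0.26, Abca3 by 0.31 ± 0.22 and Lpcat1 by 0.18 ± 0.18 (adjusted p = 0.39, 0.61 and 0.77), and knockout replicate 1 was again the highest in each. The median difference of the 8 genes was 1.27, against 0.01 over all probe sets.

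Knockout replicate 1 carried much of the size of these differences, though not their calls. Without it the differences were 1.56 in Sftpa1, 0.83 in Sftpc, 1.88 in Sftpd and 1.41 in Slc34a2, all still past the threshold (largest limma adjusted p = 0.048). Without replicate 2 they were 3.52, 2.09, 3.99 and 3.29, and Napsa passed as well (2.14, adjusted p = 2.8e-04). Fitted on the 6 libraries of E13.5 alone, none of the 4 passed (limma, adjusted p = 0.44 to 0.48). The SDs of the 3 knockout libraries were 1.96 in Sftpa1, 1.25 in Sftpc, 2.12 in Sftpd and 1.89 in Slc34a2. Leaving out knockout replicate 1 together with wild-type replicate 2, an alternative chosen after seeing the data, left 4 genes called with differences of 0.65 to 1.76. Nfe2l2 itself stood at 8.26, 5.43 and 6.76 in knockout replicates 1 to 3 of E13.5, the same order as in these genes, and the part of this in the differences was not tested.

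**Figure D2:**
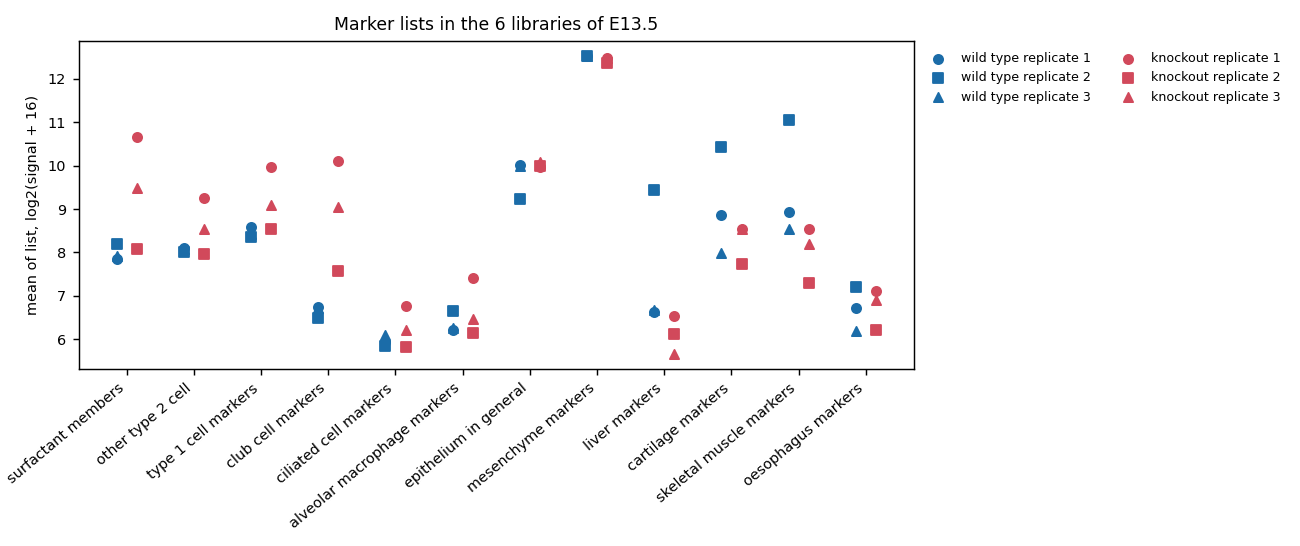
Mean log2(signal + 16) on the vertical axis of marker lists on the horizontal axis, in each of the 6 libraries of E13.5, blue for wild type and red for knockout, with a symbol for each replicate. In the surfactant, other type 2, type 1 and club cell lists knockout replicate 1 is the highest and replicate 3 the next, while general epithelial genes sit at 9.96 to 10.08 in all 3 knockouts; wild-type replicate 2 is the highest in the liver, cartilage and muscle lists.

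Markers of other lung cell types moved with these genes at E13.5. Club cell markers averaged 10.11, 7.57 and 9.04 in knockout replicates 1 to 3 against 6.76, 6.50 and 6.73 in wild type, and 6 of 10 were called higher. Scgb1a1, the major club cell secretory gene, stood at 14.76, 10.50 and 13.87 against 4.43, 7.57 and 5.47. Type 1 cell markers averaged 9.97, 8.55 and 9.10 against 8.58, 8.37 and 8.44, with 7 of 14 higher, and 3 of 15 further type 2 cell genes were higher, Hc at 1.80, Cxcl15 at 1.66 and Ppp1r14c at 0.93. General epithelial genes averaged 9.96, 9.99 and 10.08 in knockouts and 9.22 to 10.02 in wild type, lowest in replicate 2, with none of 12 called, and wild-type replicate 2 was high in liver markers (9.43 against 6.64 and 6.68), cartilage markers (10.43 against 8.87 and 7.98) and muscle markers (11.05 against 8.93 and 8.54). Macrophage markers were called in 0 of 9, but their list averaged 7.41 in knockout replicate 1 against 6.14 and 6.46 in the other knockouts and 6.21 to 6.65 in wild type. Of 21 lipid synthesis genes 0 were called, of 20 transcription factors Elf5 was higher (1.01) and Klf5 lower (-0.95), where 0.93% of probe sets were lower, and the part of the other cell types in the surfactant differences was not tested.

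From E13.5 to E15.5 the knockouts rose in 3 genes and fell in 1, where 1.83% of probe sets rose and 1% fell. Sftpc (1.60), Sftpb (1.03) and Abca3 (0.96) rose, and Sftpd fell by 1.64 ± 0.41 (limma, adjusted p = 0.015). The knockout Sftpd libraries of E15.5, 7.32, 6.47 and 7.15, lay within the range of those of E13.5, and without replicate 1 of E13.5 the difference was -0.60 (adjusted p = 0.53). The call was also lost without replicate 3 of E13.5 (adjusted p = 0.058) and without replicate 2 of E15.5 (0.11). Without replicate 1 of E15.5, the highest of its group in all 8 genes, the rises of Sftpb and Abca3 were 0.46 and 0.66 and no longer passed (adjusted p = 0.54 and 0.20); both were also lost without replicate 2 of E13.5 (0.15 and 0.091), and Sftpb without replicate 3 of E13.5 (0.12). The difference between genotypes in this step passed in Sftpc (-1.42 ± 0.31, adjusted p = 0.02), where 0.371% of probe sets did. Without knockout E13.5 replicate 1 it was -0.81 (adjusted p = 0.082), and it was also lost without wild-type E13.5 replicate 2, wild-type E15.5 replicate 2 or 3, or knockout E15.5 replicate 2 (adjusted p = 0.050 to 0.092). It was -2.26 ± 0.58 in Sftpd and -2.09 ± 0.53 in Sftpa1 (adjusted p = 0.064 and 0.058).

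At E15.5 no gene of the 8 differed between genotypes, where 0.127% of probe sets did. The differences ran from -0.23 ± 0.44 in Napsa to 0.66 ± 0.41 in Sftpd (95% interval -0.17 to 1.48, limma, adjusted p = 0.92), with a median of 0.12. Slc34a2 stood at 8.23, 8.50 and 8.07 in wild type and at 10.34, 7.70 and 8.11 in knockouts, so only knockout replicate 1 lay above the wild-type libraries. In that library type 1 cell markers averaged 9.86 against 9.23 and 9.46 in the other knockouts, and club cell markers 9.62 against 8.73 and 9.06. From E15.5 to E17.5 the knockouts rose in 7 genes, again all but Sftpc, where 11.7% of probe sets rose, with a median of 3.83. The rise did not differ between genotypes past the threshold in any of the 8 genes, where 0.382% of probe sets did (differences of -0.17 to 0.78, the widest 95% interval -0.47 to 2.02 in Napsa).

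From the label E17.5 to E18.5, 7 of 8 genes were lower on average in knockouts and 7 of 8 higher in wild type. In wild type none passed. In knockouts 3 passed, and 0 without replicate 1 of E18.5. At E17.5 the libraries of both genotypes were free of overlap in all 8 genes, 7 higher in knockouts and Sftpc lower, where 12.2% of probe sets were higher and 11.2% lower in this way. Sftpd stood at 10.89, 11.23 and 11.50 in wild type and at 12.12, 12.43 and 12.46 in knockouts, and Slc34a2 at 13.22, 13.15 and 13.39 against 13.77, 13.89 and 13.85. With the spread pooled over all groups none of the 8 passed, where 1.22% of probe sets did: 1.13 ± 0.41 in Sftpd (limma, adjusted p = 0.22), 0.80 ± 0.38 in Sftpa1, and 0.47 ± 0.18 in Lpcat1 (adjusted p = 0.25). Fitted on the 6 libraries of E17.5 alone, the 7 higher genes passed (limma, adjusted p = 0.0034 to 0.028), and with array weights Sftpa1, Sftpd, Abca3 and Lpcat1 passed. In the list of further type 2 cell genes the largest called differences at E17.5 were S100g (3.00), Chil1 (2.28) and Il33 (1.18), all higher in knockouts. In the list of lipid synthesis and transfer they were Scd1 (2.35), Acsl4 (0.58) and Cept1 (0.40), also higher. Macrophage markers averaged 7.73 to 8.08 in knockouts labelled E17.5 and 6.36 to 6.55 in wild type, liver markers 7.68 to 8.63 against 4.84 to 5.05, and oesophagus markers 5.72 to 6.59 against 8.52 to 8.89; their part was not tested.

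At E18.5 Sftpd, Abca3 and Lpcat1 were lower in knockouts, 3 of 8 genes where 4.03% of probe sets were lower. Sftpd stood at 12.74, 12.43 and 12.06 in wild type and at 9.45, 10.82 and 10.82 in knockouts, a gap of more than 1 unit between the groups (-2.04 ± 0.41, limma, adjusted p = 6.8e-04). Abca3 stood at 12.70, 12.83 and 12.24 against 11.33, 12.10 and 12.03 (-0.77 ± 0.22, adjusted p = 0.016), and Lpcat1 at 12.82, 12.99 and 12.73 against 11.84, 12.44 and 12.37 (-0.63 ± 0.18, adjusted p = 0.017). Neither overlapped, as in 12.7% of probe sets lower in all knockouts, and in all 3 genes knockout replicate 1 was the lowest. Without that library Sftpd kept its call (-1.59, adjusted p = 0.028), but Abca3 (-0.53) and Lpcat1 (-0.44) did not (adjusted p = 0.24 and 0.23). The calls of Abca3 and Lpcat1 were also lost without wild-type replicate 1 (adjusted p = 0.085 and 0.052) and without wild-type replicate 2 (adjusted p = 0.14 and 0.11). Fitted on the 6 libraries of E18.5 alone, neither passed (adjusted p = 0.10 and 0.070) while Sftpa1 did (0.041), and with array medians subtracted Lpcat1 did not (0.058). Both other Abca3 probe sets were lower without passing, at -0.37 and -0.68 (adjusted p = 0.36 and 0.14).

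The remaining genes at E18.5 lay on the same side without passing, except Sftpc. Sftpa1 stood at 13.80, 13.73 and 13.51 against 12.11, 12.92 and 12.91 (-1.03 ± 0.38, limma, adjusted p = 0.076), Napsa at 12.77, 12.75 and 12.43 against 11.35, 12.19 and 12.14, and Slc34a2 at 13.84, 13.89 and 13.57 against 12.55, 13.25 and 13.23. The genotypes did not overlap in these 3 genes, and knockout replicate 1 was again the lowest. Sftpb differed by -0.40 ± 0.26 and Sftpc by 0.08 ± 0.22, with overlap. The median of the 8 genes was -0.75, against -0.01 over all probe sets, of which 4.72% were higher. Of 21 lipid synthesis and transfer genes 10 were lower and 1 higher, with Scd1 at -1.84, the phospholipase Pla2g1b at -1.32 and the peroxisomal oxidase Acox2 at -1.29. Of 15 further type 2 cell genes 6 were lower, led by S100g (-2.92), Hc (-2.35) and the lysozyme Lyz1 (-1.94), and of 20 transcription factors 4 were lower, with Cebpd at -1.38, Tfcp2l1 at -1.02 and Id2 at -0.47.

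**Figure D3:**
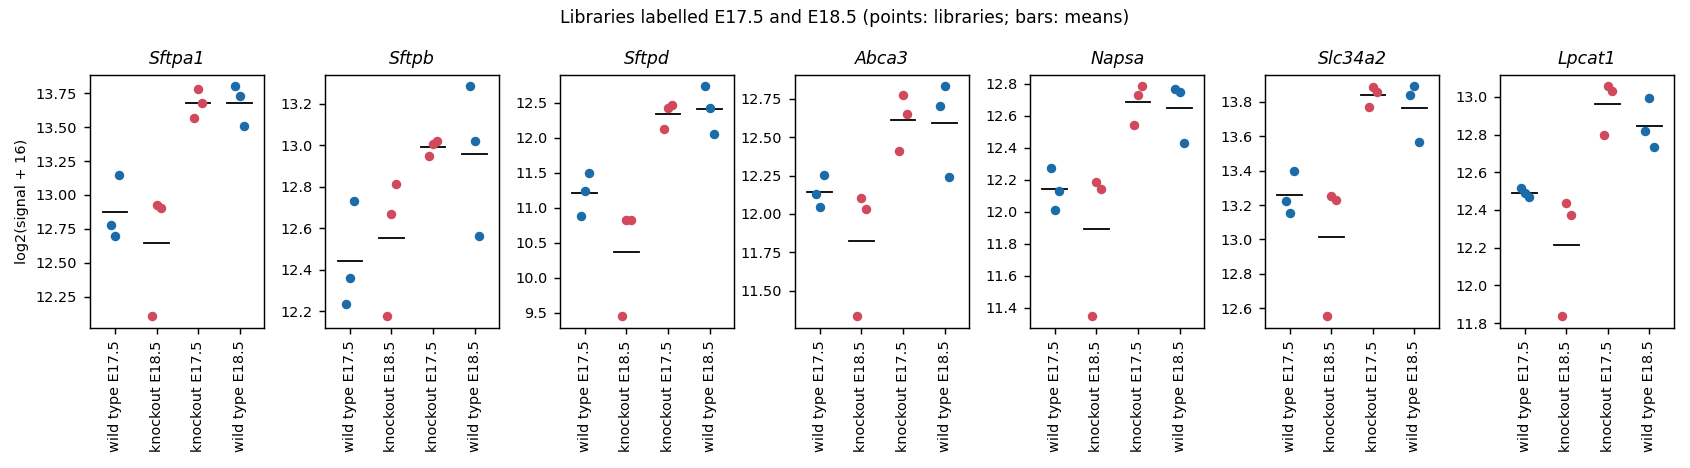
Signal of 7 genes, as log2(signal + 16) on the vertical axis of each panel, in the 12 libraries labelled E17.5 and E18.5 (points, blue wild type and red knockout; bars, means of n = 3), ordered with the knockouts of each label beside the wild type of the other. None of the genes was called between the knockouts of one label and the wild type of the other. Few probe sets were: 0.249% for knockouts labelled E18.5 and 0.81% for those labelled E17.5. In Sftpd and Lpcat1 all knockouts labelled E18.5 lie below wild-type E17.5, and Sftpd of knockout E18.5 replicate 1 is at 9.45. In Sftpc, which is not drawn, all knockouts labelled E18.5 lie above wild-type E17.5.

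The step from E17.5 to E18.5 differed between genotypes in 4 of 8 genes, where 4.11% of probe sets differed downward: Sftpd by -3.17 ± 0.58, Sftpa1 by -1.83 ± 0.53, Abca3 by -1.24 ± 0.31 and Lpcat1 by -1.10 ± 0.25 (limma, adjusted p = 1.7e-04, 0.021, 0.0059 and 0.0028). The call of Sftpa1 was lost without knockout E18.5 replicate 1 (-1.57, adjusted p = 0.098) and without wild-type E17.5 replicate 1 or 2, wild-type E18.5 replicate 1 or 2, or knockout E17.5 replicate 2 (adjusted p = 0.050 to 0.058). Set against the other label, none of the 8 genes was called. Knockouts labelled E18.5 differed from wild-type E17.5 by -0.84 to 0.11, with 6 of 8 differences negative (0.249% of probe sets called). All of them lay below wild-type E17.5 in Sftpd (9.45 to 10.82 against 10.89 to 11.50) and in Lpcat1 (11.84 to 12.44 against 12.47 to 12.52). In Sftpc all of them lay above it (14.67 to 14.72 against 14.62 to 14.66). The share of all probe sets without overlap was not counted for these groups. The 95% interval of the Sftpd difference between them was -1.67 to -0.01. Knockouts labelled E17.5 differed from wild-type E18.5 by -0.11 to 0.11 (0.81% of probe sets called). The widest 95% interval there was -0.84 to 0.92, in Napsa. Cell cycle genes averaged 11.09, 10.72 and 10.72 in knockouts labelled E18.5 and 9.34, 9.40 and 10.24 in wild type of that label, against 10.54, 10.46 and 10.02 in wild-type E17.5. Cartilage markers averaged 9.97 in knockout E18.5 replicate 1 and 7.35 in both other libraries of that group. Type 1 cell markers were lower in 8 of 14 and higher in 2 at E18.5, and general epithelial genes higher in 1 of 12 (Epcam, 0.65), where 4.03% of probe sets were lower and 4.72% higher. Whether the libraries labelled E17.5 and E18.5 bear each other's age was not tested.

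Within knockouts, the step from the label E17.5 to E18.5 was lower in 3 genes, Sftpd (-1.97 ± 0.41), Abca3 (-0.79 ± 0.22) and Lpcat1 (-0.75 ± 0.18), where 2.76% of probe sets fell, and without replicate 1 of E18.5 none of the 3 passed (limma, adjusted p = 0.064, 0.30 and 0.15). Abca3 was also lost without replicate 2 or 3 of E17.5 (0.12 and 0.088). Knockouts then rose from E18.5 to PND0 in Sftpd (3.42 ± 0.41, adjusted p = 2.5e-09), Sftpa1 (1.18 ± 0.38) and Sftpb (0.93 ± 0.26), where 12.1% of probe sets rose. Sftpd was then at 13.93, 13.69 and 13.72, far above all knockouts labelled E18.5. Without replicate 1 of E18.5 the rises of Sftpa1 (0.91) and Sftpb (0.74) did not pass (adjusted p = 0.12 and 0.064). In Sftpd the step differed from that of wild type by 2.32 ± 0.58 (adjusted p = 0.0044, where 5.1% of probe sets differed upward).

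From birth to PND14 none of the 8 genes passed between genotypes at any of the 6 ages, although 10.7% of probe sets did at PND0, 2.05% at PND1, 5.96% at PND2, 8.08% at PND3, 0.486% at PND4 and 8.2% at PND14. At PND0 Sftpb stood at 13.16, 12.78 and 12.87 in wild type and at 13.60, 13.48 and 13.36 in knockouts, higher without overlap as were 14.2% of probe sets (0.54 ± 0.26, limma, adjusted p = 0.22), and Abca3 at 12.67, 12.48 and 12.68 against 12.13, 12.26 and 12.26, lower without overlap as were 14.1% (-0.40 ± 0.22, adjusted p = 0.29). At PND3 Sftpd stood at 12.92, 12.98 and 13.02 against 13.67, 13.85 and 13.85, without overlap as in 13.8% of probe sets (0.81 ± 0.41, adjusted p = 0.25). Without overlap, 5 of the 8 genes differed at PND0, Sftpb and Sftpd higher and Sftpa1, Abca3 and Lpcat1 lower, and 4 at PND3, Sftpa1, Sftpd and Slc34a2 higher and Lpcat1 lower (13.7% of probe sets lower at PND3). The differences of Sftpb and Abca3 at PND0 and of Sftpd at PND3 passed in fits on the 6 libraries of that age alone (limma, adjusted p = 0.022, 0.027 and 8.6e-04). At PND1 the largest difference was 0.30 ± 0.44, in Napsa.

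At PND42 Lpcat1 was lower in knockouts, 1 of 8 genes where 3.22% of probe sets were lower. It stood at 12.46, 12.31 and 12.45 in wild type and at 12.11, 11.60 and 11.77 in knockouts, without overlap as in 12.4% of probe sets (-0.58 ± 0.18, limma, adjusted p = 0.043). The call was lost without any 1 of 5 of the 6 libraries (adjusted p = 0.071 to 0.24; it held without knockout replicate 1). It was also lost on values as deposited (adjusted p = 0.12), with array medians subtracted (0.16), with trimmed means equal (0.074) and without the intensity trend (0.064), and 7 of 20 alternatives passed. Slc34a2 was lower without overlap, at 14.06, 14.11 and 14.22 in wild type and 13.97, 13.69 and 14.02 in knockouts. Napsa was also free of overlap, at 12.47, 12.23 and 12.65 against 12.09, 11.56 and 11.94, but with a difference of -0.59 ± 0.44 (adjusted p = 0.57), and Sftpb lay on the other side, at 13.07, 12.81 and 13.15 against 13.69, 13.49 and 13.64, as in 12.7% of probe sets (0.60 ± 0.26, adjusted p = 0.22, and 0.011 when fitted on the 6 libraries of PND42 alone). Of the 9 genes of surfactant turnover, 2 were lower at this age, Pparg (-1.38) and the sterol transporter Abcg1 (-0.58), both of which macrophages also use, and macrophage markers averaged 9.17 to 9.39 in knockouts and 9.56 to 9.73 in wild type. Of 21 lipid genes Pcyt1a, the rate-setting enzyme of phosphatidylcholine synthesis, was lower (-0.48), and Gapdh ratios were 0.43 to 0.66 in knockouts and 0.06 to 0.45 in wild type. The part of cell numbers and RNA quality was not tested.

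**Figure D4:**
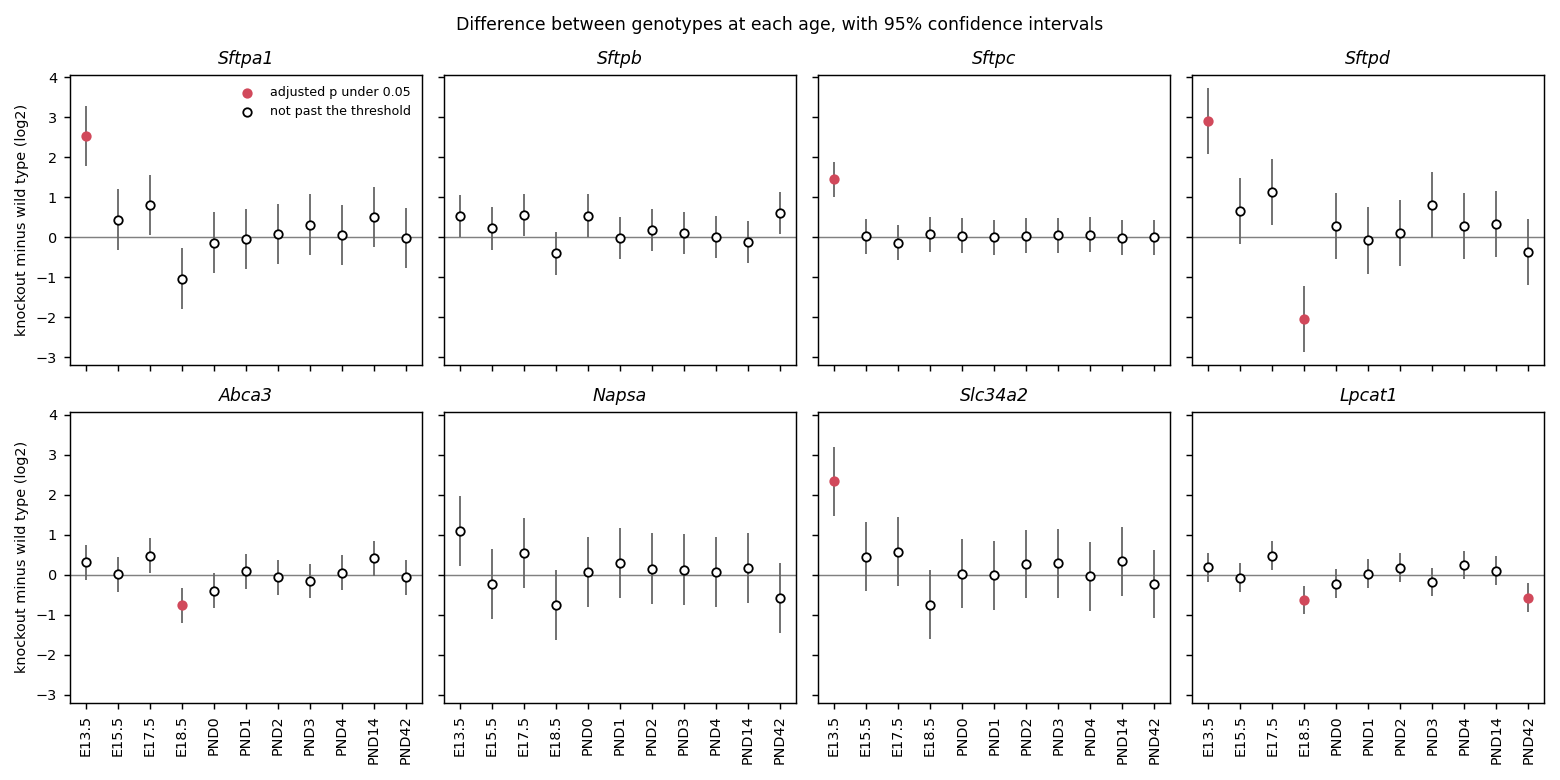
Knockout minus wild-type difference of each of the 8 genes in log2 units (vertical axis) at the 11 ages (horizontal axis), with 95% confidence intervals from the pooled limma fit, n = 3 libraries per genotype. Filled red points have an adjusted p under 0.05; 4 lie above 0 at E13.5, 3 below 0 at E18.5 and 1 below 0 at PND42.

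Averaged over the 11 ages, 1 of 8 genes passed, where 10.6% of probe sets did: Sftpd at 0.36 ± 0.12 (limma, adjusted p = 0.048). That average combined 2.91 at E13.5 with -2.04 at E18.5 and was 0.11 ± 0.13 without E13.5 (adjusted p = 0.67), where none of the 8 passed and 12.4% of probe sets did. Leaving out any 1 of 49 of the 66 libraries also took the adjusted p over the threshold, to 0.071 at most. Without E13.5, E17.5 and E18.5 none of the 8 passed, where 13.2% of probe sets did, with averages of -0.06 ± 0.06 in Lpcat1 to 0.25 ± 0.15 in Sftpd and every 95% interval within -0.30 to 0.54. The difference between genotypes depended on age in 6 of 8 genes, where it did in 28.3% of probe sets: Sftpd (limma F test, adjusted p = 5.2e-06), Sftpa1 (3.6e-04), Sftpc (0.0037), Lpcat1 (0.0073), Slc34a2 (0.014) and Abca3 (0.038), but not Sftpb (0.28) or Napsa (0.39). Without E13.5 the dependence held in Sftpd, Abca3 and Lpcat1 (26.9% of probe sets), without E17.5 and E18.5 in Sftpa1, Sftpc, Sftpd and Slc34a2 (23.9%), and without all 3 ages in none of the 8 (21.7%), with Lpcat1 lowest at an adjusted p of 0.15.

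With group means removed, all 28 pairs of genes correlated positively over the 66 libraries, with a median Pearson r of 0.68. The pairs share their libraries, so depth, tissue makeup and array quality are common to both members, and no test was made. Sftpa1 and Sftpd gave the highest value (0.93); they lie on chromosome 14 with 1 protein-coding gene, the collectin Mbl1, between them in the GRCm38.p6 gene order. Napsa and Slc34a2, on chromosomes 7 and 5, gave the same value, and Abca3 and Lpcat1 gave 0.88. Sftpc and Lpcat1 were least alike (0.22). The 3 knockout libraries of E13.5 held 89.9% of the within-group sum of squares in Sftpc, 72.1% in Sftpa1, 70.1% in Sftpd, 51.6% in Slc34a2 and 49.1% in Napsa. Without them, an alternative added after seeing the data, 25 of 28 pairs were positive over 63 libraries, with a median of 0.65. Sftpc then gave -0.20 to 0.31 with the other genes, Sftpa1 with Sftpd 0.76, Abca3 with Lpcat1 0.87 and Napsa with Slc34a2 0.89, the highest. The spread within groups was widest in knockout E13.5 for 5 of the 8 genes, Sftpa1, Sftpc, Sftpd, Napsa and Slc34a2, in knockout E15.5 for Sftpb and in wild-type PND14 for Abca3 and Lpcat1.

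**Figure D5:**
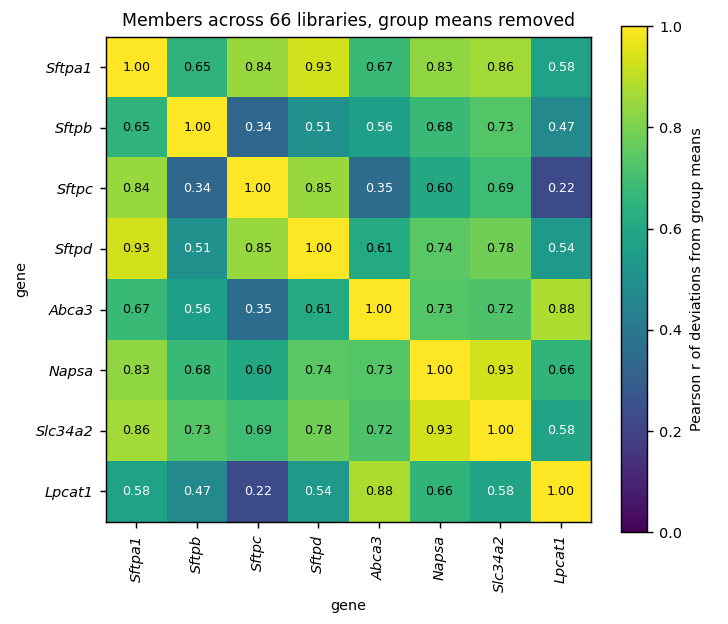
Pearson r between each pair of the 8 genes (named on both axes) over 66 libraries after removal of the 22 group means; the colour scale runs from 0 to 1. Values range from 0.22 for Sftpc with Lpcat1 to 0.93 for Sftpa1 with Sftpd and for Napsa with Slc34a2.

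Over all 66 libraries the genes most like the mean profile of the 8, by Pearson r of standardized values, were Emp2 (0.991), Ager (0.985), Cbr2 (0.983), Cxcl15 (0.982), Sec14l3 (0.970), Lgals3 (0.969), Cav1 (0.968), Cdkn2b (0.967), Cav2 (0.966) and Clic3 (0.962). Emp2 and Ager are type 1 cell markers, Cbr2 a club cell marker and Cxcl15 a type 2 cell gene. Single genes had other nearest profiles: Sftpc was most like the club cell gene Scgb3a2 (0.972), Sftpd the water channel Aqp5 (0.978) and Lpcat1 Dram2 (0.931). The points share libraries and ages, and both differ with age.

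Other probe sets of 5 of the genes were read as a check. The second Sftpa1 probe set gave 2.17 at E13.5 and -1.48 at E18.5, both past the threshold (limma, adjusted p = 0.013 for the latter), where the brighter one passed at E13.5 alone. At E17.5 the second Abca3 probe set passed (0.89, adjusted p = 0.020). For Lpcat1, 4 further probe sets gave -0.51, -0.38, -0.33 and 0.82 at E18.5 and -0.78, -0.21, -0.19 and 0.050 at PND42, and none passed at E18.5. Only the value of -0.78 passed, at PND42. At PND2 the Lpcat1 probe set with a mean deposited signal of 5116 passed (0.62, limma, adjusted p = 0.048), where the brightest did not. That probe set also passed in the average over 11 ages (0.20, adjusted p = 0.024). The values of -0.38 and 0.82 at E18.5, and 0.050 and -0.19 at PND42, came from dim probe sets with mean deposited signals of 71.8 and 22.8. A dimmer Sftpc probe set, with a mean deposited signal of 36.5, gave 0.82 at E13.5 (adjusted p = 0.55).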

How the data were processed

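For 66 arrays of whole-lung RNA the authors deposited linear signal intensity per probe set; the submitters' processing notes name GCOS, whose version is not given in the sources used here. Over all 45101 probe sets, 64 controls included, the deposited intensities were quantile-normalized and taken as log2(signal + 16). A model with 22 group means was fitted with limma 3.58.1 in R 4.3.3 (lmFit, eBayes with trend, residual df 44), with Benjamini-Hochberg adjustment over 45037 probe sets. Probe sets with 1 symbol numbered 34945, with several 932 and with none 9160; none with several was named. The code was tested on simulated data. The number of arrays, 3 a group, limits the precision, and where nothing ties samples to separate litters the p-values measure the spread between these samples. Of other lists, the 3 genes with the largest called differences were named, and the 10 genes most like the mean profile. The members and lists were chosen with earlier results of these data known. Alternatives changed the scaling, pseudocount, dim-probe filter, trend, weights, samples in the fit, replicate block and probe set.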

Additional observations from a re-analysis of the deposited data

Results flagged for a closer look

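The knockout difference depended on age by limma's F test over 11 ages in 6 of the 8 genes: Sftpa1 (adjusted p = 0.00036), Sftpc (0.0037), Sftpd (5.2e-06), Abca3 (0.038), Slc34a2 (0.014) and Lpcat1 (0.0073). Steps between ages that differed between genotypes were Sftpc from E13.5 to E15.5 (-1.42, knockout step minus wild-type step, log2), Sftpa1 (-1.83), Sftpd (-3.17), Abca3 (-1.24) and Lpcat1 (-1.10) from E17.5 to E18.5, and Sftpd from E18.5 to PND0 (2.32). The last 5 involve the knockout libraries labelled E17.5 or E18.5. Of these, every library labelled E18.5 and replicate 2 of E17.5 correlated best with a wild-type age other than its label. The reason was not tested.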

How the results depend on the processing

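Counts are of the 8 genes past the limma threshold. The average over ages (1) became 0 on values as deposited, with a pseudocount of 64, without the intensity trend, without E13.5, without E13.5, E17.5 and E18.5, and over PND1 to PND4; it became 4 with array medians subtracted, 3 with trimmed means equal, and 2 with only signals over 100 or without E17.5 and E18.5. The count at E13.5 (4) became 0 with only the groups of E13.5 in the fit. The dependence on age (6) became 3 without E13.5 and 0 without all 3 ages. Leaving out 1 library gave 4 to 5 at E13.5, 1 to 3 at E18.5, 0 to 4 for the average, 5 to 7 for the dependence on age, and 7 for each of the wild-type steps E13.5 to E15.5 and E15.5 to E17.5. Over all other alternatives, 304 counts stayed or changed little, 21 grew and 21 shrank. Those 304 include counts of 0 in both fits and small changes, such as 6 to 4 for the dependence on age with the replicate block. Of values of single genes 482 kept their call, 75 gained and 57 lost it, and 11 reversed.

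All 11 reversals came from other probe sets, 8 of them from probe sets with a mean signal under 100: Sftpc in the knockout step E13.5 to E15.5 (-0.082), Abca3 in the knockout step PND0 to PND14 (-0.98 and -1.06), Napsa in the knockout step PND14 to PND42 (0.96), and Lpcat1 at PND42 (0.050), at E18.5 (0.82), in the wild-type steps PND0 to PND14 (0.42) and E13.5 to E15.5 (-0.16), in the knockout step E17.5 to E18.5 (0.61), in the difference of that step (1.05) and in the average (0.20). The cause was not tested. The replicate numbers do not pair the samples (33 pairs, correlations of -0.18 to 0.21, 1 over 0.1). With the replicate block the counts were 4 at E13.5, 3 at E18.5, 1 for the average, 4 for the dependence on age and 7 for each wild-type step; Lpcat1 at PND42 (adjusted p = 0.087) and Sftpb in the knockout steps E13.5 to E15.5 (0.055) and PND0 to PND14 (0.052) no longer passed, while Sftpd passed in the wild-type step PND1 to PND4 (-1.19, 0.029) and in the difference of the step E13.5 to E15.5 (-2.26, 0.043). With 3 libraries a group, a gene that did not pass is not shown to be equal between groups. The intervals give the range of differences that remain possible. Bright probe sets such as that of Sftpc have little range left.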
